A study of Homo sapiens with 13 samples.

Results

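A transgene route and a cytokine route to cells that the study names germ cell-like were set side by side. The first gave DAZL-positive human cells isolated on day 4 after SOX17 and DMRT1 had been induced (d4 DZ+PGCLCs). The second gave NANOS3-positive cells raised with BMP2 and other cytokines (N3+PGCLCs). The comparison used the 4 libraries of these groups, 2 in each, of 13 samples in the series, and every one of the 9706 genes that stand in at least 1 of the 3 deposited tables of differential expression. Those tables hold 2577, 5392 and 6862 genes that differed from the starting stem cells in N3+PGCLCs, in the later DM+PGCLCs and in d8 DZ+PGCLCs, respectively. The d4 DZ+PGCLC libraries took part in none of the 3 selections.

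Primordial germ cells are the founders of eggs and sperm. In human cells SOX17 starts the germ cell programme and PRDM1 and TFAP2C carry it on, while POU5F1 and NANOG, better known as pluripotency factors, stay on in early germ cells and SOX2 is switched off. BMP signals induce the fate, NANOS3 marks the nascent cells, and DMRT1 and then DAZL, an RNA-binding protein, come on later, as the cells approach the gonad.

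All cells were of WIS2, an established human embryonic stem cell line, grown beforehand in 4i medium (4i ESCs) on mouse feeder cells. N3+PGCLCs carried NANOS3-tdTomato and DMRT1-Venus reporters, received BMP2 at 500 ng/ml, EGF at 50 ng/ml, SCF at 100 ng/ml and a 10 µM dose of ROCK inhibitor, and were taken on day 3 by the study's methods as cells positive for NANOS3 and for TNAP, the alkaline phosphatase that ALPL encodes. Their labels give no transgene, although the study's text says that dual reporter cells contained inducible SOX17 and PRDM1 and also BCL2L1. The d4 DZ+PGCLCs carried a DAZL-tdTomato reporter, SOX17 inducible with dexamethasone and DMRT1 inducible with doxycycline. They had 1 day of the same cytokines with dexamethasone and then, for 2 days by the labels, both inducers with 100 ng/ml activin A, retinoic acid at 20 µM and again SCF and EGF, before the DAZL sort on day 4. DM+PGCLCs, of the NANOS3 and DMRT1 reporter line, had 3 days of BMP2 medium and then 6 days of activin A and retinoic acid without the inducers, passed the same NANOS3 and TNAP sort by their labels, and are given here where a level needs a reference that had retinoic acid. Both main groups therefore received BMP2 first, and the reporter line, the transgenes, dexamethasone, doxycycline, activin A, retinoic acid, the day and the sorted marker all differ between them and cannot be told apart.

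Values are log2(RPKM + 0.1), where RPKM is the read number scaled for transcript length and library size, so that a gene listed at 0 stands at -3.32 and a difference of 1 is a change of 2 times. Read totals are not used here, but the steps between the lowest values gave relative depths of 0.837 and 0.868 in N3+PGCLCs and 0.856 and 0.665 in d4 DZ+PGCLCs, with the first 4i ESC library as 1. Of the 9706 genes, 754 to 908 were listed at 0 and 6533 to 6843 reached 1 RPKM in each of the 4 libraries. Libraries of a group correlated at r = 0.966 (N3+PGCLCs) and 0.976 (d4 DZ+PGCLCs) across genes, and libraries of different groups at 0.804 to 0.823. N3+PGCLC replicate 2 stood apart: of 356 genes that differed by over 2 log2 units between the N3+PGCLC libraries, 305 were higher in replicate 2, while 134 genes differed by as much between the d4 DZ+PGCLC libraries.

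A gene was called at a difference over 1 log2 unit and an adjusted p under 0.05 in limma. Of the 9706 genes, 1507 were called higher in d4 DZ+PGCLCs (15.5%) and 2339 lower (24.1%), and 39.6% were called in either direction. The median difference over all genes was -0.08. The libraries of the groups did not overlap for 6850 genes (70.6%). Of the calls, 85 higher genes were listed at 0 in both N3+PGCLC libraries and 138 lower genes at 0 in both d4 DZ+PGCLC libraries, and no fold is given for those. Quantile normalization moved the median of all genes by 0.168 log2 units and turned the balance of the calls to 2107 higher and 1933 lower.

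**Figure D1:**
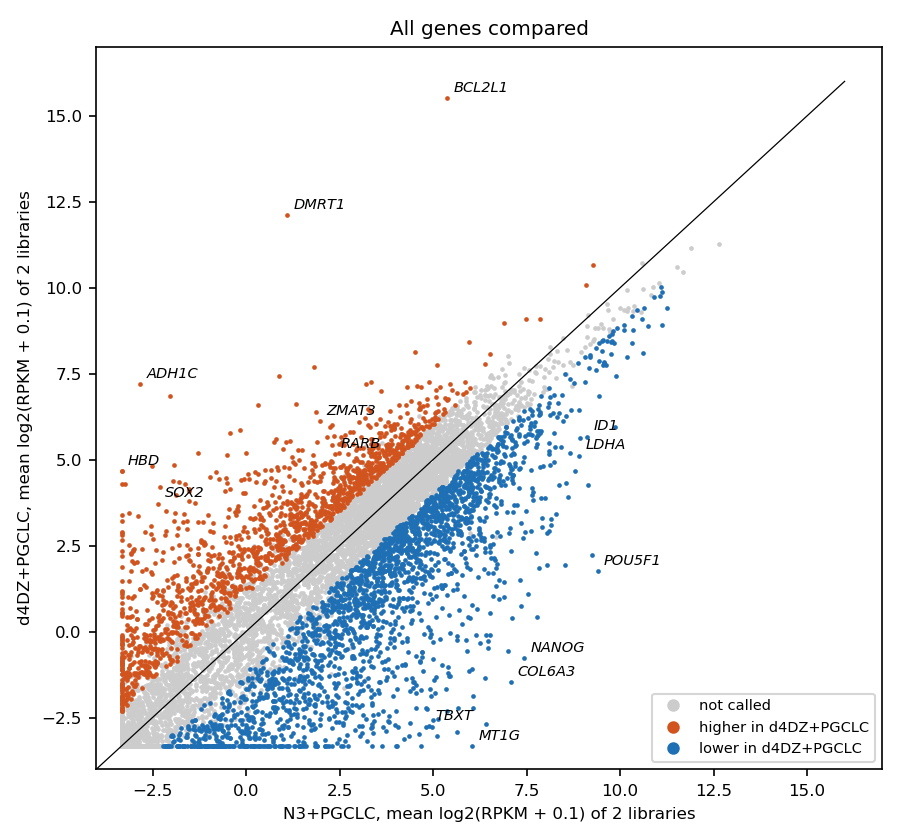
Mean log2(RPKM + 0.1) of the 2 N3+PGCLC libraries (horizontal axis) against that of the 2 d4 DZ+PGCLC libraries (vertical axis) for the 9706 genes. Points are single genes, coloured where called higher (1507) or lower (2339) in d4 DZ+PGCLCs. BCL2L1 and DMRT1, which were induced by design, stand far above the line of equality, and POU5F1, NANOG and MT1G far below it.

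How the genes had been chosen bears on these counts. Among the 1310 genes that entered the tables for standing above 4i ESCs in N3+PGCLCs, 58.3% were lower in d4 DZ+PGCLCs and 4.27% higher. Among the 1267 that entered for standing below 4i ESCs in N3+PGCLCs, 29.1% were higher and 15.9% lower. The 7129 genes that N3+PGCLCs did not help to select gave 15.2% higher and 19.3% lower, with a median difference of 0. For each list below with members selected through N3+PGCLCs, the count over those that N3+PGCLCs did not select (unselected members) stands beside the pooled one. Unselected members had still entered through DM+PGCLCs or d8 DZ+PGCLCs, the latter raised by the same transgene route as d4 DZ+PGCLCs. Counts over unselected members are therefore not free of selection, and how far this moved them was not tested. A gene that entered through N3+PGCLCs alone is described with no test. Listed members of a list are those among the 9706 genes, so members that stood in none of the 3 tables are left out.

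The induced genes and the sort markers check the labels and are given with no test. DMRT1 (chromosome 9, positions 841690 to 969090, GRCh38), a transcription factor of the gonad and germ line, stood at 12.18 and 12.01 in d4 DZ+PGCLCs and at 1.00 and 1.21 in N3+PGCLCs. BCL2L1 (chromosome 20, 31664452 to 31723989), an inhibitor of apoptosis that the study cloned into its doxycycline vector beside DMRT1, stood at 15.57 and 15.47 against 5.43 and 5.30. In d8 DZ+PGCLCs, of the same route on day 8, BCL2L1 was listed at 0 in both libraries while DMRT1 stood at 12.42 and 12.24, and 4i ESCs held 6.07 and 6.04 of BCL2L1. What the deposited BCL2L1 values stand for is therefore uncertain, and so are the read shares estimated from them. SOX17 was at a like level in both groups, at 6.76 and 6.39 in d4 DZ+PGCLCs and 7.63 and 6.82 in N3+PGCLCs, against -1.56 and 0.26 in 4i ESCs. Reads of a transgene and of the gene's own copy were not separated in these values.

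DAZL was listed at 0 in both N3+PGCLC libraries and stood at 3.51 and 2.08 in d4 DZ+PGCLCs, which were sorted for it. NANOS3, an RNA-binding protein that protects germ cells, stood at 4.61 and 3.25 in N3+PGCLCs, which were sorted for it, and at -1.49 and -2.24 in d4 DZ+PGCLCs. ALPL, the other marker of the N3+PGCLC sort, stood at 6.93 and 6.46 against 1.96 and 1.97. Each of these 3 genes was thus on the side that its sort would give.

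At a median coding transcript length of 2444 bases, BCL2L1 alone would account for 11.9% and 11.1% of the reads of the d4 DZ+PGCLC libraries, and BCL2L1, DMRT1 and SOX17 together for 12.8% and 11.9%. At that assumed length, which is not given for the deposited values, the other genes of those libraries would be lowered by an estimated 0.18 and 0.17 log2 units through BCL2L1. With its reads taken out and the libraries rescaled, 1768 genes were higher and 2109 lower in d4 DZ+PGCLCs, and the median difference became 0. Of 142 named genes called in the comparison, none lost its call under this rescaling.

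The germ cell label was checked against markers. The summed RPKM of 6 germ cell markers (NANOS3, PRDM1, TFAP2C, SOX17, KIT and TFCP2L1) was 503 and 289 in N3+PGCLCs and 146 and 119 in d4 DZ+PGCLCs. Without SOX17, which was induced, it was 306 and 176 against 37.7 and 35.2, and 51.9 and 57.4 in 4i ESCs. Of these markers NANOS3, TFAP2C and KIT were low in the day 4 libraries. PRDM1 and TFCP2L1 stayed above 4i ESCs there, at means of 4.2 and 3.86 against 1.76 and 1.48. The day 4 libraries keep the study's label, d4 DZ+PGCLCs, in what follows. It is used as a name for the DAZL sort only, because the summed markers without SOX17 stood below 4i ESCs.

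TFAP2C, a transcription factor of the early germ cell programme, stood at 7.15 and 6.22 in N3+PGCLCs and at 1.42 and 1.21 in d4 DZ+PGCLCs, a difference of -5.37 ± 0.28 (SE, adjusted p = 2.5e-05). It was also below both 4i ESC libraries, whose mean was 5.44. KIT, the receptor of SCF, stood at 5.46 and 4.89 against -0.52 and 0.07, a difference of -5.40 ± 0.29 (adjusted p = 2.8e-05). Neither gene had an overlap between the groups, although SCF was present in both media.

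PRDM1, a repressor that keeps somatic genes off in germ cells, was the least changed of the lower genes in the early germ cell list. It stood at 6.21 and 5.56 in N3+PGCLCs and at 4.42 and 4.01 in d4 DZ+PGCLCs, a difference of -1.67 ± 0.43 (adjusted p = 0.014), and it remained above 4i ESCs (mean 1.76). Without N3+PGCLC replicate 1 its difference was -1.34 with an adjusted p of 0.0832, and without d4 DZ+PGCLC replicate 2 it was -1.46 with an adjusted p of 0.0818. TFCP2L1, a factor of naive pluripotency and germ cells, stood at 4.41 and 4.00 against 3.71 and 4.01 and was not called (difference -0.35, 95% interval -0.91 to 0.21).

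Early germ cell genes as a list were lower in d4 DZ+PGCLCs: 22 of 25 listed members were called lower and 0 higher, or 20 of 22 without the genes set by the sorts and the induction. The median difference of the list was -4.68, against -0.08 for all genes. Of the 16 members selected as above 4i ESCs in N3+PGCLCs 14 were lower, and of the 8 that N3+PGCLCs did not select 7 were lower. In bulk libraries fewer cells with a transcript and less of it per cell cannot be told apart, and this holds for each list below.

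POU5F1 (chromosome 6, 31164337 to 31180731) stood at 9.68 and 9.11 in N3+PGCLCs and at 2.28 and 1.23 in d4 DZ+PGCLCs, a difference of -7.64 ± 0.34 (adjusted p = 1.8e-05). NANOG (chromosome 12, 7787794 to 7799146) stood at 7.80 and 7.07 against -0.68 and -0.86, a difference of -8.21 ± 0.34 (adjusted p = 1.8e-05). UTF1, a chromatin factor of pluripotent cells, stood at 6.92 and 5.85 against -1.47 and -1.20. All 3 genes were lower in each d4 DZ+PGCLC library than in any library of 4i ESCs, N3+PGCLCs or DM+PGCLCs. POU5F1 and NANOG have near-identical copies elsewhere in the genome, so that their exact levels are uncertain.

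SOX2 went the other way. It stood at 3.94 and 3.50 in d4 DZ+PGCLCs and at -2.95 and -1.74 in N3+PGCLCs, a difference of 6.06 ± 0.52 (adjusted p = 1.2e-04), and at a mean of 6.98 in 4i ESCs. Among 33 listed pluripotency genes 19 were lower and 3 higher (SOX2, ZIC2 and FOXD3), with a median difference of -2.15. All 3 higher genes were among the 13 selected as below 4i ESCs in N3+PGCLCs, and the 12 unselected members gave 0 higher and 6 lower. ZIC2, a zinc finger factor of neural and pluripotent cells, stood at -0.37 and 4.11 in the N3+PGCLC libraries, which themselves differed, and at 6.58 and 6.18 in d4 DZ+PGCLCs. In 4i ESCs the mean of ZIC2 was 6.41. TDGF1, a co-receptor of nodal, stood at 5.33 and 4.94 in N3+PGCLCs and in d4 DZ+PGCLCs was listed at 0 in 1 library and at -1.77 in the other. The call of ZIC2 was lost in 3 of the 14 alternatives, with only the 4 libraries of both groups (adjusted p = 0.15) and without either d4 DZ+PGCLC library (0.083 and 0.070), and that of FOXD3 with only those 4 and at a pseudocount of 0.5 or 1.

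**Figure D2:**
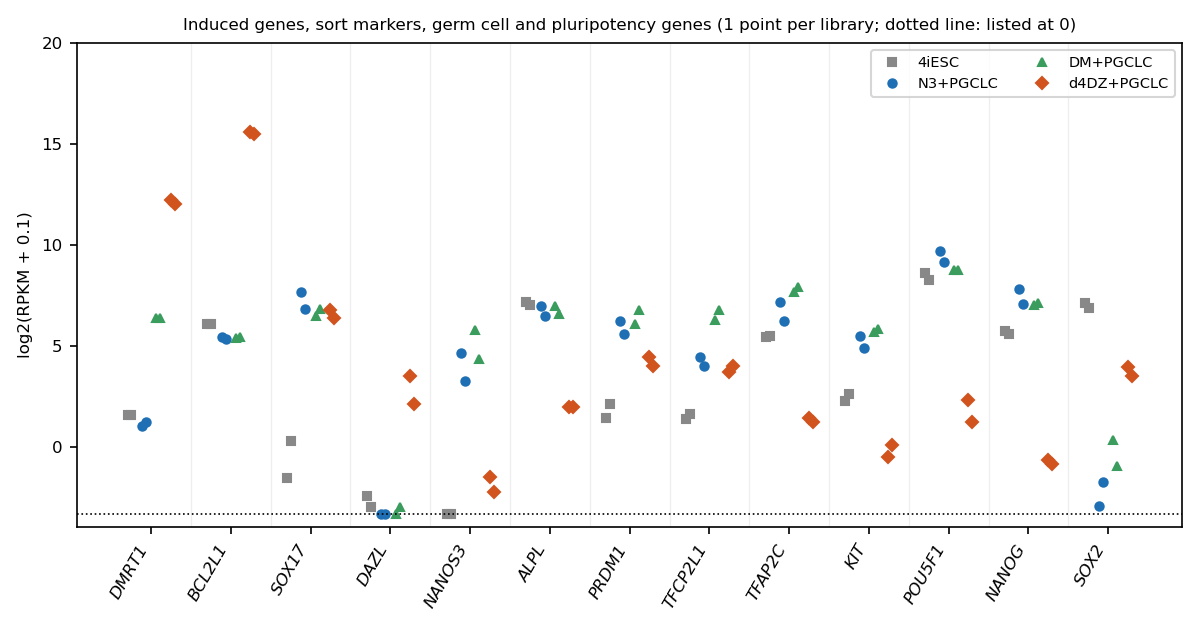
log2(RPKM + 0.1) of induced genes, sort markers, germ cell genes and pluripotency genes; each point is 1 library of 4i ESCs, N3+PGCLCs, DM+PGCLCs or d4 DZ+PGCLCs, and the dotted line marks genes listed at 0. The d4 DZ+PGCLC points lie below all others for TFAP2C, KIT, POU5F1, NANOG and ALPL, and far above them for DMRT1, BCL2L1 and DAZL.

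Genes of later germ cells leaned to d4 DZ+PGCLCs, mostly at low levels. Of 27 members of the list only 15 were listed. Of these 15, 10 were higher and 2 lower (median difference 1.5), or 8 higher of 13 without DMRT1 and DAZL. The 11 unselected members, DMRT1 and DAZL among them, gave 8 higher and 0 lower. The higher count was 6 without d4 DZ+PGCLC replicate 2, and 6 at a pseudocount of 1. STK31, a tudor domain kinase of the germ line, stood at 1.07 and 1.01 in d4 DZ+PGCLCs and -2.77 and -2.23 in N3+PGCLCs, a difference of 3.54 ± 0.42 (adjusted p = 4.7e-04). BRDT, a bromodomain protein of the testis, was lower, being listed at 0 in d4 DZ+PGCLC replicate 1 and at -1.14 in replicate 2, against 1.51 and 1.04. The call of BRDT was lost with only the 4 libraries of both groups (adjusted p = 0.073), without N3+PGCLC replicate 1 (0.065) and without d4 DZ+PGCLC replicate 1 (0.075). CDH5, a cadherin of endothelium and of migratory germ cells, was lower too, at -2.29 and -2.27 against -0.01 and -0.69, while DM+PGCLCs held 6.99 and 7.66. The call of CDH5 ended at a pseudocount of 0.5 or 1.

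Of 30 meiosis genes 19 were listed, with 10 higher and 2 lower (median 1.55). The 14 unselected members gave 7 higher and 1 lower. MEI1, needed for meiotic double-strand breaks in the mouse, stood at 0.74 and 1.69 in d4 DZ+PGCLCs and -2.44 and -1.23 in N3+PGCLCs, a difference of 3.05 ± 0.52 (adjusted p = 0.0024). RNF212, a crossover regulator, stood at 4.26 and 4.48 against 2.37 and 1.57, and STAG3, a meiotic cohesin, at 2.30 and 2.58 against 0.49 and -0.11. In 4i ESCs RNF212 stood at a mean of -0.16 and STAG3 at 2.4 and 1.4, so STAG3 was near its starting level in d4 DZ+PGCLCs. DMC1, the meiotic recombinase, was lower, at 0.38 and 1.04 against 2.26 and 2.81, and so was MEI4, at -3.14 and -3.10 against -0.95 and -1.24, whose call ended at a pseudocount of 0.5 or 1. The calls of MEI1 (adjusted p = 0.053) and DMC1 (0.061) were lost with only the 4 libraries of both groups. The number of higher meiosis genes fell to 6 without N3+PGCLC replicate 2, and also at a pseudocount of 1.

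Of 20 genes of the piRNA pathway, which silences transposons in germ cells, 13 were listed, with 2 higher and 0 lower (median 0.44). The higher count is near the 15.5% of all genes and is not read as a result about the pathway. Of all genes 24.1% were lower. PIWIL2, a piRNA-binding Argonaute, stood at 1.02 and 0.52 in d4 DZ+PGCLCs and -2.56 and -1.49 in N3+PGCLCs, a difference of 2.80 ± 0.45 (adjusted p = 0.0019). GPAT2 was listed at 0 in both N3+PGCLC libraries and stood at -2.41 and -1.56 in d4 DZ+PGCLCs, and its call ended at a pseudocount of 0.5 or 1, with only the 4 libraries of both groups (adjusted p = 0.069) and without d4 DZ+PGCLC replicate 2 (difference 0.92). PIWIL1 (-1.74 and -1.37 in d4 DZ+PGCLCs, listed at 0 in both N3+PGCLC libraries) and PIWIL4 (-1.15 and -0.81 against 0.37 and -0.31) were not called.

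Among DNA methylation enzymes 5 were called lower and only TET3 higher. DNMT3B, a de novo methyltransferase, stood at 1.59 and 1.64 in d4 DZ+PGCLCs and 4.52 and 5.29 in N3+PGCLCs, a difference of -3.29 ± 0.28 (adjusted p = 1.1e-04). TET1, which oxidizes 5-methylcytosine, stood at 4.22 and 4.19 against 6.18 and 5.84 (difference -1.80 ± 0.17), whereas its relative TET3 stood at 4.61 and 4.78 against 2.46 and 2.93 (difference 2.00 ± 0.21). TET2 was at about the same level in all 4 libraries, 2.96 and 3.13 against 3.13 and 2.81, with a difference of 0.08 (95% interval -0.51 to 0.66). Of 13 listed members of the group 1 was higher and 5 lower (DNMT3B, HELLS, IDH2, TET1 and UHRF1), the median difference being -0.72, and the 10 unselected members gave 1 higher and 4 lower. Over all genes 15.5% were higher and 24.1% lower.

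BMP response genes were lower in d4 DZ+PGCLCs, which had BMP2 on the first day only. Of 20 listed members 14 were lower and 0 higher, with a median difference of -2.72. Of these 20, 17 had been selected as above 4i ESCs in N3+PGCLCs, where 58.3% of all such genes were lower, and 12 of the 17 were lower. Of the other 3, 2 were lower, so the count rests almost wholly on selected members. ID3, an inhibitor of bHLH factors and a direct BMP target, stood at 1.82 and 0.64 against 6.03 and 5.27 in N3+PGCLCs, a difference of -4.42 ± 0.48 (adjusted p = 3.1e-04). BAMBI, a decoy receptor of the pathway, stood at 3.46 and 3.15 against 7.57 and 8.26, a difference of -4.61 ± 0.25 (adjusted p = 2.8e-05). GATA3 (3.43 and 3.44 against 3.23 and 4.38) and TFAP2A (3.89 and 2.91 against 4.19 and 3.73), factors that BMP induces in amnion, were not called against N3+PGCLCs. Both exceeded DM+PGCLCs, in which GATA3 stood at -0.20 and -0.07 and TFAP2A at -0.15 and -0.93 (adjusted p = 2.0e-04 and 4.7e-04). Against DM+PGCLCs, where 18.8% of all genes were higher and 26.1% lower in d4 DZ+PGCLCs (45% in either direction), 5 BMP response genes were higher and 5 lower.

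Activin and nodal genes were lower as well, although activin A had been added: 13 of 20 listed members were lower and 2 higher (median -1.96). Of these 20, 14 had been selected through N3+PGCLCs, and the 6 unselected members gave 3 lower and 1 higher (median -0.98). LEFTY1, a feedback inhibitor of nodal, stood at -2.06 and -1.56 in d4 DZ+PGCLCs and 3.50 and 3.35 in N3+PGCLCs, a difference of -5.24 ± 0.66 (adjusted p = 5.8e-04). In DM+PGCLCs, which also had activin A, LEFTY1 stood at 7.81 and 6.97. FOXH1, a cofactor of SMAD2 and SMAD3, stood at -1.57 and -0.36 against 5.23 in both N3+PGCLC libraries. FST, an activin antagonist, was higher, at 5.07 and 4.48 against 1.89 and 3.21, and so was the receptor ACVR2A, at 4.83 and 4.35 against 2.66 and 3.34. The call of FST was lost with only the 4 libraries of both groups (adjusted p = 0.073), without N3+PGCLC replicate 1 (0.053) and without d4 DZ+PGCLC replicate 1 (0.060), and that of ACVR2A with only the 4 libraries. Against DM+PGCLCs the counts were again 2 higher and 13 lower.

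Retinoic acid genes were called in both directions, and 14 of 26 listed members were not called, against 5860 of all 9706 genes. In d4 DZ+PGCLCs, which had retinoic acid, 7 members were higher and 5 lower than in N3+PGCLCs, which had none. Over all genes 15.5% were higher and 24.1% lower. The median difference of the list was 0.40. All 5 lower members had been selected through N3+PGCLCs. The 14 unselected members gave 5 higher and 0 lower (median 0.43), against 15.2% higher and 19.3% lower of all genes not selected through N3+PGCLCs. CYP26A1 (chromosome 10, 93073475 to 93077885), an enzyme that degrades retinoic acid and is induced by it, stood at 5.22 and 4.57 against 1.17 and 2.46, a difference of 3.08 ± 0.50 (adjusted p = 0.0020). In DM+PGCLCs it stood at 7.27 and 6.76, above d4 DZ+PGCLCs (adjusted p = 0.0090). RARB (chromosome 3, 24687887 to 25597932), a retinoic acid receptor that is itself a target, stood at 5.36 and 4.95 against 2.39 and 2.35, a difference of 2.78 ± 0.18 (adjusted p = 5.1e-05), and at 4.95 and 4.93 in DM+PGCLCs. RARB and STRA8 were chosen after their values were seen. Other members higher were NR2F1, CYP26B1, MEIS2 and RARA. The lower members included CDX1, at 0.04 and -0.41 against 5.05 and 2.63, and TGM2, a transglutaminase selected through N3+PGCLCs alone, at -1.39 and -1.29 against 2.88 and 3.02. STRA8, which retinoic acid induces at the start of meiosis, was listed at 0 in all 4 libraries.

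The promoters of RARB and CYP26A1 are shown because both genes were higher and both windows hold a DR5 element, the site known to bind retinoic acid receptors. The element was searched as a pair of half-sites (AGGTCA or AGTTCA, either also with G for the leading A) that follow each other after 5 bases, on either strand, in the 250 bases before a start site. The windows are RefSeq's, 5′ to 3′ on the gene's strand (GRCh38.p14, chr3:25428013-25428262 and chr10:93073643-93073892, both on the plus strand), and the capitals mark the element.
RARB: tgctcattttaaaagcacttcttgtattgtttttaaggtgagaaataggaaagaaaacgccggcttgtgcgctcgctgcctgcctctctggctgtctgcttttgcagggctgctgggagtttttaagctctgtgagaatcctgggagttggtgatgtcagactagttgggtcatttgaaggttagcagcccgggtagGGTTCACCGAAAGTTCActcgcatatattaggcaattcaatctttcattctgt
CYP26A1: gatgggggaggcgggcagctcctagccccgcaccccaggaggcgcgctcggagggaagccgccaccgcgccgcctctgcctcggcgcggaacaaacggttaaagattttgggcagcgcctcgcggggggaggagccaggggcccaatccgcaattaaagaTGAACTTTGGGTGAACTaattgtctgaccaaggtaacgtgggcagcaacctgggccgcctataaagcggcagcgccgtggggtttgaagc
The element lies 53 to 37 bases before a RARB start and, on the other strand, 90 to 74 bases before a CYP26A1 start. Both starts lie inside the gene spans given above, and which start gave the reads was not tested. It was found in 26 of 35116 promoters of the table (0.074%). Of the genes compared here 7433 had a promoter in the table and 7 of them held the element, of which CYP26A1, RARB, PHF8 and PRSS27 were called higher and 0 lower. A match describes these letters only.

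Glucocorticoid response genes were counted because d4 DZ+PGCLCs had dexamethasone. Of 20 listed members 2 were higher and 8 lower, with a median difference of 0.31. Of the 8 lower, 5 were among the 7 selected as above 4i ESCs in N3+PGCLCs, and the 9 unselected members gave 1 higher and 3 lower. NR3C1, the glucocorticoid receptor, stood at 5.42 and 5.11 against 2.85 and 3.01, a difference of 2.34 ± 0.26 (adjusted p = 3.4e-04). Dexamethasone acted through a fusion of SOX17 to this receptor, and how many of the NR3C1 reads came from the fusion was not tested. TSC22D3, a glucocorticoid-induced leucine zipper protein selected through N3+PGCLCs alone, stood at 4.82 and 4.17 against 2.11 and 2.59. The lower members included ANGPTL4, a regulator of lipoprotein lipase, at 0.82 and 1.35 against 8.12 and 6.98, and the kinase SGK1, at 1.45 and 1.42 against 7.46 and 6.32.

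Of 15 listed genes of ERK feedback 7 were lower and 1 higher (median -0.85), EGF being present in both routes, and the 6 unselected members gave 3 lower and 0 higher. SPRY4, a feedback inhibitor, stood at 1.36 and 2.33 against 7.14 and 6.24 (difference -4.84 ± 0.37, adjusted p = 8.2e-05). FOSL1, an AP-1 subunit, was the higher member, at 4.41 and 4.33 against 1.56 and 0.04. Immediate early genes showed 4 lower and 0 higher of 16, led by FOSL2 (0.84 and 1.12 against 3.39 and 5.27), and 1 lower of 6 unselected members. Over all genes 24.1% were lower and 15.5% higher. The lower count of immediate early genes is near that share and is not read as a result about the list.

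In the HOXA cluster HOXA2 to HOXA5 and HOXA7 were called higher and HOXA10, HOXA11 and HOXA13 lower in d4 DZ+PGCLCs, and whether this follows gene order was not tested. These factors specify position along the body axis, and genes at the 3′ end of a cluster are the first to answer to retinoic acid. HOXA3 stood at 6.16 and 5.57 in d4 DZ+PGCLCs and -0.66 and 0.32 in N3+PGCLCs, a difference of 6.04 ± 0.58 (adjusted p = 1.8e-04), and HOXA2 at 3.79 and 3.80 against -2.38 and -0.66. At the other end HOXA13 stood at -3.13 and a level listed at 0, against 1.90 and 2.96, a difference of -5.66 ± 0.63 (adjusted p = 3.3e-04). Of 11 listed HOXA genes 6 were higher and 3 lower, and those named beyond HOXA2, HOXA3 and HOXA13 were chosen after their values were seen. HOXA2 and HOXA3 were also higher than in DM+PGCLCs (adjusted p = 8.4e-04 and 0.0013).

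The other HOX clusters held fewer calls. Of 10 listed HOXB genes 0 were higher and 2 lower, of 3 HOXC genes 0 were higher and 1 lower, and of 8 HOXD genes 2 were higher and 3 lower. HOXB genes differed between the N3+PGCLC libraries: HOXB3 stood at 1.95 and 5.76 there, and HOXB6 at 1.19 and 4.67. Over all 32 listed HOX genes 8 were higher and 9 lower. Of the 12 selected as above 4i ESCs in N3+PGCLCs 7 were lower, which is near the 58.3% of all genes selected that way. Of the 19 that N3+PGCLCs did not select 7 were higher and 2 lower. Without N3+PGCLC replicate 1 the lower count was 14, and without replicate 2 it was 7 beside 11 higher.

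**Figure D3:**
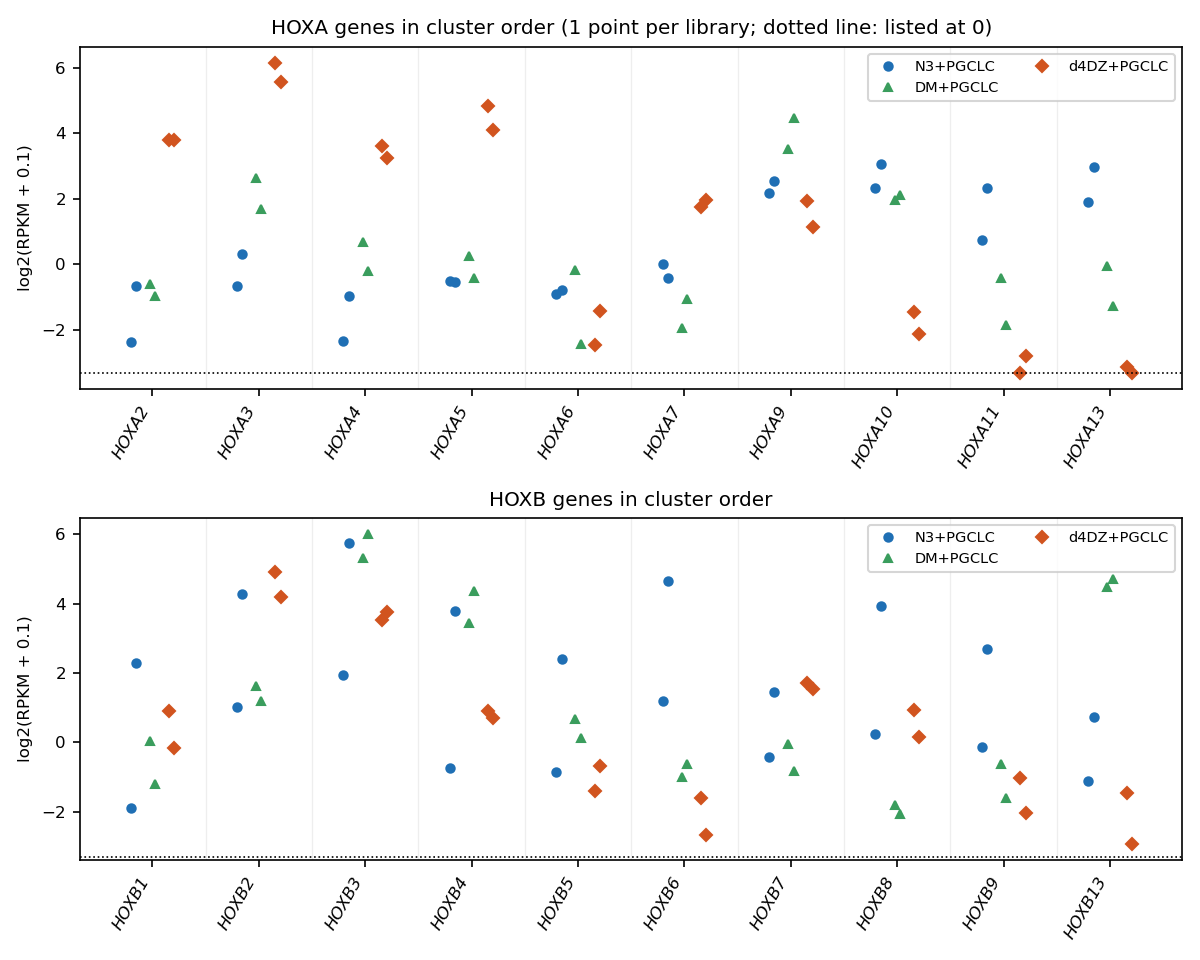
log2(RPKM + 0.1) of HOXA (top) and HOXB (bottom) genes shown in the order of their clusters; each point is 1 library of N3+PGCLCs, DM+PGCLCs or d4 DZ+PGCLCs, and the dotted line marks genes listed at 0. The d4 DZ+PGCLC points are highest for HOXA2 to HOXA5 and HOXA7 and lowest for HOXA10 to HOXA13, and the N3+PGCLC points of HOXB genes lie far apart.

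Targets of p53, which halts the cell cycle and can trigger apoptosis, were higher in d4 DZ+PGCLCs: 13 of 15 listed members were higher and 1 lower, with a median difference of 2.00. Of the 15, 13 had been selected as below 4i ESCs in N3+PGCLCs (12 higher), where 29.1% of all such genes were higher. Only 1 member was unselected, and it was higher, so the count rests almost wholly on selected members. FAS, a death receptor, stood at 2.77 and 3.58 against -1.55 and -1.03, a difference of 4.46 ± 0.62 (adjusted p = 9.2e-04). ZMAT3, a zinc finger RNA-binding protein, stood at 6.04 and 6.22 against 1.94 and 2.03, a difference of 4.14 ± 0.18 (adjusted p = 1.8e-05). GDF15, a secreted stress cytokine, stood at 5.67 and 6.21 against 1.84 and 2.65. PHLDA3 was the lower member, at 5.76 and 5.74 against 7.66 and 6.94. The count of 13 was the same under each of the 14 alternatives, and against DM+PGCLCs 14 of the 15 were higher.

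In 4i ESCs several of these targets were near or above their level in d4 DZ+PGCLCs, GDF15 at a mean of 6.33, FAS at 2.65 and CDKN1A at 6.83. CDK inhibitors showed 3 higher and 0 lower of 6 listed (median 2.26). Of the 3 higher, 2 were among the 3 selected as below 4i ESCs in N3+PGCLCs, and the 3 unselected members had a median of 0.57. CDKN1A, the inhibitor p21, stood at 5.69 and 5.61 against 2.28 and 2.80, a difference of 3.11 ± 0.39 (adjusted p = 5.8e-04). CDKN2A stood at 4.77 and 4.38 against -0.57 and 0.69, and at a mean of 4.48 in 4i ESCs. CDKN2C stood at 0.66 and 0.15 against -2.87 and -1.20, and at a mean of -2.6 in 4i ESCs. The call of CDKN2C was lost at a pseudocount of 1 (difference 0.92) and with only the 4 libraries of both groups (adjusted p = 0.091). The p53 target BAX, which permeabilizes mitochondria, stood at 8.20 and 7.93 against 6.44 and 6.58. Of 11 listed members of the BCL2 family 3 were higher (BCL2L1, BAX and BAD, the last under 1 log2 unit without replicate 1 of either group and at an adjusted p of 0.073 with only the 4 libraries) and 2 lower (BMF and BOK), and the 6 unselected members gave 1 higher and 1 lower.

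Cell cycle genes were lower. Of 24 listed genes of G2 and M phase 21 were lower and 0 higher, with a median difference of -1.94, and 20 of the 23 unselected members were lower. BUB1B, a kinase of the spindle checkpoint, stood at 2.72 and 3.31 in d4 DZ+PGCLCs and 6.36 and 6.08 in N3+PGCLCs, a difference of -3.20 ± 0.22 (adjusted p = 5.7e-05). DLGAP5, a spindle protein, stood at 2.57 and 2.22 against 5.61 and 5.30, and KIF20A, a kinesin of cytokinesis, at 2.70 and 1.93 against 4.77 and 5.04. Of 17 listed S phase genes 9 were lower and 0 higher (median -1.19), among them the replication factors MCM10 (1.33 and 1.81 against 5.11 and 4.19) and CDT1 (3.82 and 3.21 against 6.06 and 5.82). Against DM+PGCLCs the lower counts were 21 of 24 and 12 of 17.

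Promoters of 3 of the lower G2 and M genes are shown for the letters TTTGAA, known as the cell cycle homology region, through which such genes are held down outside the dividing phases. Each window is the 100 bases before a RefSeq start site (GRCh38.p14), 5′ to 3′ on the gene's strand, at chr15:40160969-40161068 (plus strand), chr16:23678789-23678888 (plus strand) and chr5:138331805-138331904 (minus strand), with the match in capitals. PLK1, a mitotic kinase, and CDC25C, a phosphatase that activates CDK1, were named for these letters after their values were seen.
BUB1B: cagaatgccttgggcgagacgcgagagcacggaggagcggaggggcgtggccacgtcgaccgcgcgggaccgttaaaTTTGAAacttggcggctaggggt
PLK1: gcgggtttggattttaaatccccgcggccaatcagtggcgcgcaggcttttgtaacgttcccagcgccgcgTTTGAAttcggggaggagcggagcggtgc
CDC25C: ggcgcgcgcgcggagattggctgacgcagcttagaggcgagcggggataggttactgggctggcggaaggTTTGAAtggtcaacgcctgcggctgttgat
TTTGAA was searched on both strands of the 250 bases before each start site, and 11 of 19 G2 and M genes with a promoter in the table held it (57.9%). It stood in 13.3% of all 35116 promoters, and in 12.9% of genes called higher and 15.3% of genes called lower. The letters ACAATGT, a core of the DMRT1 motif that also holds the SOX letters ACAAT, were in 1.79% of genes called higher, 1.83% of genes called lower and 1.76% of all genes compared that had a promoter in the table. The study reports that most DMRT1 peaks of germ cell genes lay in introns or between genes. A search of the 250 bases before start sites covers little of that sequence, so these shares cannot show whether the called genes are bound by DMRT1.

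**Figure D4:**
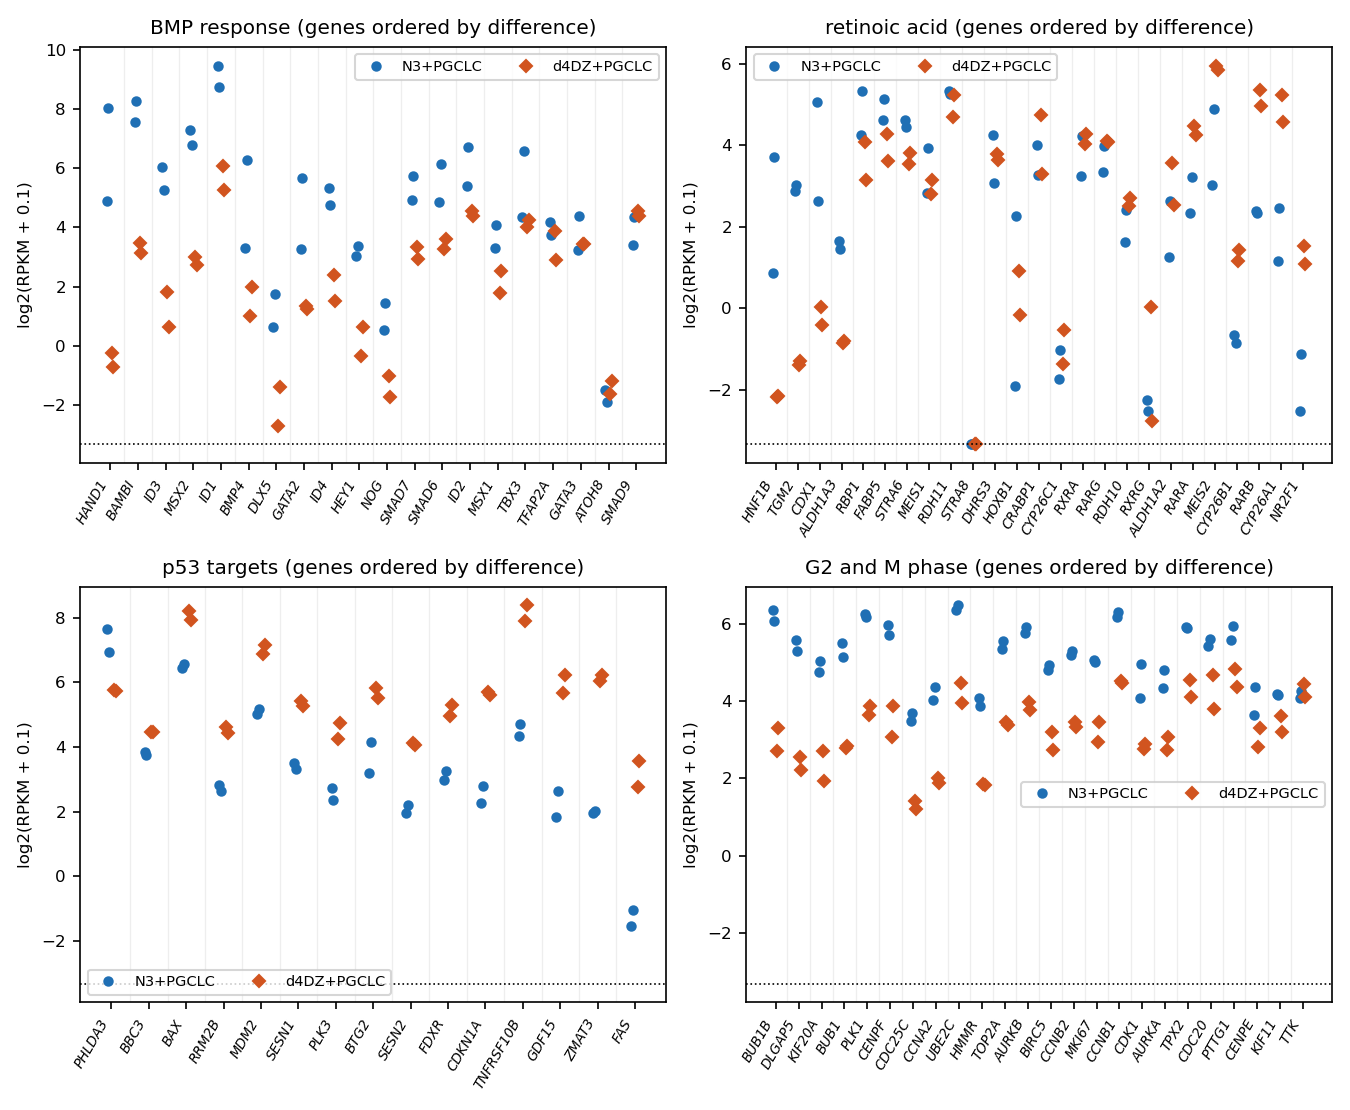
log2(RPKM + 0.1) of listed BMP response, retinoic acid (1 member not shown), p53 target and G2 and M phase genes in single N3+PGCLC and d4 DZ+PGCLC libraries (1 point per library), ordered by their difference; the dotted line marks genes listed at 0. The d4 DZ+PGCLC points lie below N3+PGCLCs for the 21 lower G2 and M genes and above them for all p53 targets but PHLDA3, while BMP response genes are lower or overlap and retinoic acid genes go both ways.

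Glycolysis genes were lower in d4 DZ+PGCLCs, 15 of 17 listed members with 0 higher (median -1.94), and the same 15 calls fell among the 16 unselected members. LDHA, which makes lactate, stood at 5.64 and 4.59 against 9.0 and 8.80, a difference of -3.79 ± 0.45 (adjusted p = 4.5e-04). The glucose transporter SLC2A3 stood at 5.70 and 5.53 against 8.96 and 8.88, and ALDOC, an aldolase, at 1.79 in both libraries against 5.22 and 5.03. Under quantile normalization 10 glycolysis genes were lower and 1 higher. Of 21 listed genes of cholesterol synthesis 6 were lower and 0 higher (median -0.71), and 1 of the 3 unselected members was lower. This lower count is near the 24.1% of all genes and is not read as a result about cholesterol synthesis. Of all genes 15.5% were higher.

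Genes of the integrated stress response, which answers to shortage of amino acids and misfolded protein, showed 9 higher and 1 lower of 14 (median 1.37). The 7 members selected as below 4i ESCs in N3+PGCLCs were all higher, and of the 5 that N3+PGCLCs did not select 1 was higher and 1 lower. SLC7A11, a cystine transporter, stood at 4.63 and 5.11 against 2.03 and 2.21, a difference of 2.75 ± 0.24 (adjusted p = 1.3e-04), and ASNS, asparagine synthetase, at 7.18 and 7.03 against 4.50 and 4.85. DDIT4 was the lower member, at 5.08 and 4.13 against 7.08 and 7.01.

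Of 10 listed antigen presentation genes 6 were higher and 1 lower than in N3+PGCLCs, and 1 was higher and 6 lower than in DM+PGCLCs. Of the 6 higher, 5 had been selected as below 4i ESCs in N3+PGCLCs, and the 4 unselected members gave 1 higher and 1 lower. TAP1, a peptide transporter selected through N3+PGCLCs alone, stood at 2.71 and 2.62 against -1.31 and -1.10, but at 2.62 and 2.48 in DM+PGCLCs and a mean of 3.08 in 4i ESCs. Imprinted genes had 1 member higher (PLAGL1, 4.63 and 4.76 against 0.54 and 0.80) and 1 lower (PEG10, 5.64 and 4.77 against 8.84 and 8.46) of 13, and neither was among the 9 unselected members. IGF2, a growth factor, stood at 4.12 and 9.26 in the N3+PGCLC libraries, the widest gap between them among genes over 1 RPKM, and at 2.86 and 2.64 in d4 DZ+PGCLCs.

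**Figure D5:**
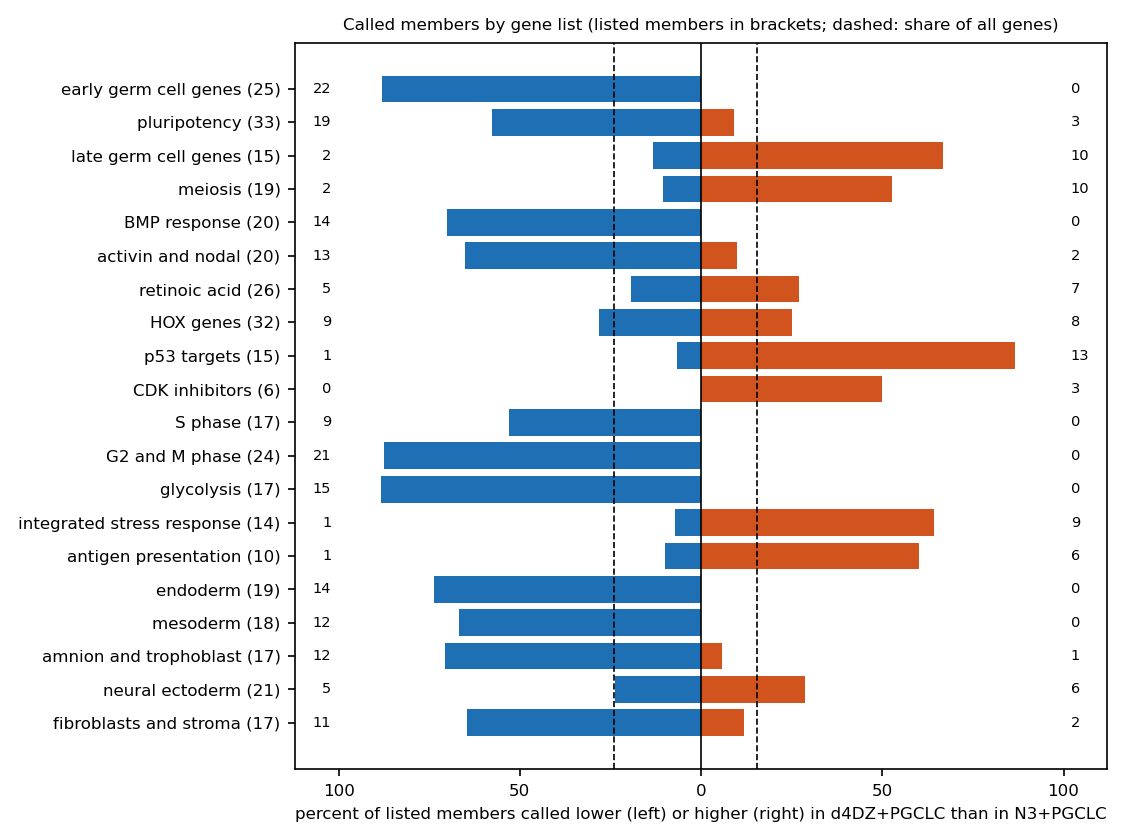
Percent of the listed members of 20 gene lists called lower (left, blue) or higher (right, orange) in d4 DZ+PGCLCs than in N3+PGCLCs; numbers at the margins are counts, numbers in brackets are listed members, selected and unselected alike, and dashed lines mark the 24.1% and 15.5% of all genes. Early germ cell genes (22 of 25), G2 and M phase (21 of 24) and glycolysis (15 of 17) reach farthest to the left and p53 targets (13 of 15) farthest to the right.

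Markers of endoderm, mesoderm, amnion, stroma and endothelium, which an induced culture could hold, summed to lower levels in d4 DZ+PGCLCs, and they set the N3+PGCLC libraries apart from each other. The summed RPKM of 5 endoderm markers (GATA4, GATA6, FOXA1, FOXA2 and APOA1) was 72.4 and 415 in the N3+PGCLC libraries and 3.28 and 3.06 in d4 DZ+PGCLCs. That of 4 mesoderm markers (HAND1, HAND2, FOXF1 and TBXT) was 74.8 and 313 against 0.753 and 0.736, and HAND2 was listed at 0 in both d4 DZ+PGCLC libraries. Amnion and trophoblast markers (GATA2, GATA3, TFAP2A, ISL1 and VTCN1) came to 40.8 and 93.4 against 28.5 and 20.8, and stroma markers (COL1A1, COL3A1, LUM and DCN) to 153 and 278 against 42.1 and 58.9. In each of these sums N3+PGCLC replicate 2 was the highest of the 4 libraries. Of 4 endothelial markers 2 were among the 9706 genes, with a sum of 5.92 and 13.3 against 0.821 and 0.192. The neural markers TUBB3, PAX6 and SOX1 did not move together and are given singly below. The part of such cells in the differences of other lists was not tested.

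By list, 14 of 19 endoderm genes were lower and 0 higher (median -4.12), 12 of 18 mesoderm genes were lower and 0 higher (median -3.20), and 12 of 17 amnion and trophoblast genes were lower and 1 higher (CGA, a hormone subunit). The members selected as above 4i ESCs in N3+PGCLCs, where 58.3% of all such genes were lower, gave 9 lower of 11 for endoderm, 10 of 12 for mesoderm and 10 of 13 for amnion and trophoblast. The members that N3+PGCLCs did not select gave 3 lower of 6, 2 of 6 and 2 of 4. Without N3+PGCLC replicate 2 the lower counts were 12, 11 and 10. APOA1, an apolipoprotein of visceral endoderm selected through N3+PGCLCs alone, stood at 5.66 and 8.37 against -0.82 and -0.34. TBXT, the mesoderm factor brachyury, stood at 5.35 and 4.43 against a level listed at 0 and -2.19, a difference of -7.65 ± 0.56 (adjusted p = 6.8e-05). Fibroblast and stroma genes were lower in 11 of 17 (8 of 10 unselected members) and higher in 2 (ACTA2 and POSTN), and the call of ACTA2 was lost without N3+PGCLC replicate 1 or either d4 DZ+PGCLC library (adjusted p = 0.09, 0.069 and 0.066).

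Of 21 listed neural genes 6 were higher and 5 lower (median 0.18), and 16 unselected members gave 4 higher and 3 lower. Over all genes 15.5% were higher and 24.1% lower, and over unselected genes 15.2% and 19.3%. The lower counts of neural genes are near these shares and are not read as a result about the list. PAX6, a factor of neural and eye tissue, stood at 2.47 and 2.34 in d4 DZ+PGCLCs, against a level listed at 0 and -2.23 in N3+PGCLCs (difference 5.18 ± 0.44, adjusted p = 1.1e-04). ZIC1 stood at 2.60 and 1.43 against -3.14 and -2.72. SOX1 was near the floor in all 4 libraries, between a level listed at 0 and -2.65. The neuronal genes TUBB3 (3.02 and 2.44 against 7.57 and 7.22) and STMN2 were lower.

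Of 20 endothelial genes 14 were listed, with 2 higher and 5 lower (median -0.77). Of 19 gonadal soma genes 10 were listed, with 3 higher and 4 lower (median 0.69). The shares of all genes were 15.5% higher and 24.1% lower. Unselected members gave 2 higher and 2 lower of 7 for endothelium and 3 higher and 1 lower of 5 for gonadal soma. TEK, an angiopoietin receptor, was lower, at -2.26 and -2.14 against 2.48 and 3.54, whereas PLVAP was higher, at 1.5 and 3.02 against -0.78 and -1.79, a call lost without N3+PGCLC replicate 2 or d4 DZ+PGCLC replicate 2 (adjusted p = 0.085 and 0.10) and with only the 4 libraries of both groups (0.056). LHX9, a factor of the early gonad, was listed at 0 in both N3+PGCLC libraries and stood at 0.06 and -0.76 in d4 DZ+PGCLCs. NR5A1, a regulator of steroid synthesis, was lower, at -0.76 and -0.08 against 2.77 and 2.01.

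The largest differences were taken among genes whose higher group had a mean level of at least 4. After the induced genes, those higher in d4 DZ+PGCLCs began with ADH1C, an alcohol dehydrogenase, at 7.74 and 6.67 against a level listed at 0 and -2.34 (difference 10.03 ± 0.65, adjusted p = 5.1e-05). CLEC1B, a lectin receptor best known from platelets, followed at 7.11 and 6.62 against a level listed at 0 and -0.76. HBD, a globin chain (4.49 and 4.86), PXT1 (4.75 and 4.57) and FATE1, an antigen of the testis (5.07 and 3.49), were listed at 0 in both N3+PGCLC libraries.

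The remaining 7 were EYS (difference 7.53), PAX3, a factor of neural crest and muscle (7.33), ONECUT1, a factor of liver and pancreas (6.79), AKR1C1, an aldo-keto reductase (6.55), and GALNT15, a glycosyltransferase (6.52), besides DMRT1 and BCL2L1. The means of EYS, PAX3, ONECUT1 and GALNT15 in N3+PGCLCs lay under 1 RPKM. HBD was listed at 0 in both DM+PGCLC libraries too, and the others but the induced pair exceeded DM+PGCLCs by 5.28 (GALNT15) to 10.02 (CLEC1B) log2 units.

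Among the 12 largest in the other direction, MT1G, a metallothionein, was listed at 0 in both d4 DZ+PGCLC libraries and stood at 5.84 and 6.26 in N3+PGCLCs. COL6A3, a collagen, stood at -2.38 and -0.54 against 6.60 and 7.58 (difference -8.55 ± 0.87, adjusted p = 2.3e-04), and APLNR, a receptor of mesoderm and endothelium, at -2.84 and -3.0 against 4.56 and 6.71. ACTG2, a smooth muscle actin, stood at -1.92 and -2.55 against 6.45 and 5.71 and was as high in 4i ESCs (mean 6.79). CST1, FGF16, ABHD12B, TRIML2 and GPX2 completed the group with NANOG and UTF1, with differences from -9.10 (CST1) to -7.72 (UTF1), and so did LUM, a proteoglycan listed at 0 in both d4 DZ+PGCLC libraries and at 3.52 and 5.82 in N3+PGCLCs. Metallothioneins, globins, ADH1 and AKR1C genes have close relatives. Reads that mapped to more than 1 place were dropped by the study's methods, so that the levels of such genes are uncertain.

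Within d4 DZ+PGCLCs the widest gaps between the libraries, among genes over 1 RPKM in both, were those of PAPSS2 (0.93 and 3.17), CCDC150 (1.81 and 3.85), PDGFRB (0.30 and 2.25), S100A6 (3.44 and 1.55), NPM2 (1.49 and 3.34) and BHMT (3.34 and 1.51). In N3+PGCLCs the widest after IGF2 were MYL4 (0.20 and 5.05), ALPK2 (0.54 and 5.00), FOXF1 (0.23 and 4.36), HOXB3 and CTTNBP2 (0.61 and 4.29), each higher in replicate 2. The study's methods call the libraries of a group independent biological replicates, and the labels do not say which cultures they came from. An exact permutation test of 2 against 2 libraries cannot go below p = 0.333, and the adjusted p-values rest on the spread pooled over the 5 RNA groups, except where only 4 libraries are said to have been fitted.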

How the data were processed

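Bulk RNA-seq covered 5 groups of 2 libraries, made with a strand-keeping kit after removal of ribosomal RNA. Per the study's methods, the authors trimmed reads with Trim Galore, mapped them to GRCh38.p13 with STAR keeping unique reads, and took RPKM from Cufflinks. The submitters' processing notes also name HOMER, Bowtie2 2.2.5 and hg38. The authors deposited log2(RPKM + 0.1) for each library, beside the log2 fold change and FDR (a q-value, the adjusted p-value) of their own edgeR comparisons with 4i ESCs, which were not used. Tables of gene ontology terms and the CUT&RUN samples were not used here either.

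Groups were compared with limma (3.58.1, R 4.3.3, intensity trend) on the deposited log2 values of all 10 RNA libraries, with 1 mean per group (5 residual degrees of freedom). Counts per library are not used here. P-values were adjusted by Benjamini-Hochberg over 9706 genes, and calls needed a fold over 2 and an adjusted p under 0.05. These genes had been selected by the authors, so adjusted p-values cover preselected genes. Differences on the log2(RPKM + 0.1) scale understate the change of low genes. On simulated data, with 200 genes changed, the fit recovered 31 of 50 genes at 1.5 log2 units, 43 of 50 at 2 and 50 of 50 at 3, with 4 false calls among 9506. The changed genes all had a mean level above 0, and each gene had the same normal spread in every group. These rates therefore do not cover low genes or genes that varied more in N3+PGCLCs.

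Genes, 32 gene lists and comparisons were chosen with earlier results of these data known. Named were: the genes set by design or sort; the 12 largest called differences in each direction with a mean of at least 4; up to 3 called members a list and direction; fixed germ cell and methylation genes; the 6 widest replicate gaps a group; and cell type markers. RARB, STRA8, UHRF1, CYP26B1, MEIS2, RARA, PLK1, CDC25C and the motif matches PHF8 and PRSS27 were named after their values were seen. Positions are from GENCODE 44, which matched 9701 of 9706 IDs. BCL2L1 reads were estimated from transcript lengths of 1292 to 3212 bases (median 2444). Relative depth limits the precision of low values, and no read total, interval or detection limit is given. Alternatives changed the pseudocount, filter, libraries fitted, replicate block, scaling, trend and replicates. Single members of the HOX, retinoic acid and cholesterol lists are counted but not reported here by name.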

Additional observations from a re-analysis of the deposited data

How the results depend on the processing

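The comparison of d4 DZ+PGCLCs with N3+PGCLCs was recomputed under 14 alternatives. The comparison with DM+PGCLCs was recomputed under the same settings, and it is only for this comparison that they were added after seeing the data. Fitting only the 4 libraries of the groups compared gave 930 higher and 1584 lower genes, against 1507 and 2339, and lower counts of 8 for BMP response, 9 for endoderm, 6 for mesoderm, 7 for amnion and trophoblast, 5 for HOX and 2 for retinoic acid genes, and 3 higher antigen presentation genes. Pseudocounts of 0.5 and 1 gave 1293 and 1073 higher and 2135 and 1946 lower, and a filter of 1 RPKM in 2 libraries gave 1275 and 2106 of 7168. Leaving out each library gave 1184 to 1488 higher and 2029 to 2259 lower, and 1489 to 1694 higher and 2362 to 2427 lower against DM+PGCLCs. Higher genes were 39.2% of the calls, 45.6% without BCL2L1 reads, 45.5% after centring on the median of abundant genes, which moved the median by 0.163, and 52.2% after quantile normalization. Against DM+PGCLCs, centring moved the median of all genes by 0.308 and gave 2447 higher and 2138 lower genes, and quantile normalization gave 2374 and 2069, against 1829 and 2535.

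With the replicate block 1469 genes were higher and 2317 lower. The numbers did not pair the libraries (correlations of replicate deviations between groups from -0.129 to 0.1, and 0.008 for these groups). Of 142 called named genes 103 kept direction and call under all 14 alternatives and 39 lost the call under at least 1, of which 29 did so with only the 4 libraries, and none reversed. Without single libraries GATA3, not called, ranged from -0.94 to 0.21 (without N3+PGCLC replicate 2), and TET2, not called, from -0.080 (without N3+PGCLC replicate 2) to 0.24, with -0.0087 without d4 DZ+PGCLC replicate 2. The calls of CDX1, IDH2 and FOSL2 were lost with only the 4 libraries, and those of CGA and LHX9 at a pseudocount of 1. The causes were not tested. Low depth limits genes under 1 RPKM, whose calls depend on the pseudocount.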
